A study of Homo sapiens with 12 samples.

Results

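Transcription factors and a secreted ligand that pattern the dorsal neural tube and the midbrain-hindbrain boundary were examined in human embryoid bodies depleted of METTL14: PAX3, PAX7, LMX1A, MSX1, ZIC1, WNT1, EN1, EN2, PAX2 and PAX8. They are 10 of the 65969 gene identifiers in the count table, they were taken by name from a list, and all 10 passed the filter on low counts. The list was drawn up because PAX3 and LMX1A were lower with METTL14 hairpins in H1 cells. Differences between METTL14 hairpins and the control hairpin in H1 are therefore given as a description, with no test.

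Embryoid bodies are aggregates that pluripotent stem cells form in suspension as they differentiate, and METTL14 is a subunit of the enzyme complex that places N6-methyladenosine on RNA. H1 and MEL1, both established human embryonic stem cell lines, were transduced with lentiviral vectors for a doxycycline-inducible short hairpin RNA, selected with puromycin, and seeded at 500 cells per microwell with 2 µg/ml doxycycline for 10 days. The hairpins were SCR, the control, or KD1, KD2 and KD3 against METTL14, and doxycycline and the vector were shared by all groups. H1 had 2 libraries each of SCR, KD1, KD2 and KD3, and MEL1 had 1 SCR, 2 KD1 and 1 KD2 library, each measured by stranded sequencing of total RNA. The sources used here do not say whether libraries of a group came from separate cultures, so p-values measure the spread between these libraries, which may be technical.

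In the vertebrate neural tube, signals of the BMP and WNT families from the dorsal side set up the roof plate, the dorsal progenitors and, at the border with the epidermis, the neural crest. PAX3, PAX7, MSX1, ZIC1, LMX1A and WNT1 mark these dorsal and border cells. Further forward, WNT1, EN1, EN2, PAX2 and PAX8, together with FGF8, are used at the boundary between midbrain and hindbrain. Several of the genes have other uses: PAX3, PAX7 and MSX1 in the paraxial mesoderm that gives muscle, and PAX2 and PAX8 in the ear and kidney.

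The 5 dorsal genes whose difference between KD1 and KD2 was not the same in the 2 lines, described below, are PAX3, PAX7, LMX1A, MSX1 and WNT1. Their promoters are shown because these genes also varied together across the libraries. Each sequence is the 250 bases before the RefSeq transcription start (GRCh38.p14), read 5′ to 3′ on the gene's strand, with the letters CCAAT, or ATTGG where the motif lies on the other strand, in capitals.
PAX3: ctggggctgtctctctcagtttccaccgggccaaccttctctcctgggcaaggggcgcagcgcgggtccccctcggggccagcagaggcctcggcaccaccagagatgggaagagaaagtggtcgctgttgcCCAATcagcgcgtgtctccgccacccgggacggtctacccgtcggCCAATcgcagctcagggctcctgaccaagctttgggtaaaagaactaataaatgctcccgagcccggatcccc
PAX7: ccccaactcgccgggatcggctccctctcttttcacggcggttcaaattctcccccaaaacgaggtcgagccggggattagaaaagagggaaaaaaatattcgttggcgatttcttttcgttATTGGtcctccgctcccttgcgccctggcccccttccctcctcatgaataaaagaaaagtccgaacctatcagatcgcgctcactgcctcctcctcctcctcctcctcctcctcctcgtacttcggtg
LMX1A: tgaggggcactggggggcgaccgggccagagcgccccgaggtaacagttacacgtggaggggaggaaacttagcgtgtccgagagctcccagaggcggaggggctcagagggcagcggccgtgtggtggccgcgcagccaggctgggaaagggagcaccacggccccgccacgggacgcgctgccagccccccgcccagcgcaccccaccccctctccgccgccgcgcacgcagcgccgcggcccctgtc
MSX1: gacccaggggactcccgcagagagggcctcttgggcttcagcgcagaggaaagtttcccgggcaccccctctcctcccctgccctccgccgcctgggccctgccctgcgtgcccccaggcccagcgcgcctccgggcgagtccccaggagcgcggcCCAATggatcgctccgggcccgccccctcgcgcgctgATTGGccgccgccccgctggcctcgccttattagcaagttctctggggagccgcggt
WNT1: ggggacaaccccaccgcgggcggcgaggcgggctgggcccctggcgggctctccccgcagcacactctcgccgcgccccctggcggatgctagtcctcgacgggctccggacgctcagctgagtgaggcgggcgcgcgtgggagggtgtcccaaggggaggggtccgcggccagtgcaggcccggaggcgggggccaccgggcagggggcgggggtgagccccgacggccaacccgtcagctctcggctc
These windows are chr2:222298999-222299248 on the minus strand for PAX3, chr1:18630596-18630845 on the plus strand for PAX7 and chr1:165356716-165356965 on the minus strand for LMX1A. For MSX1 the window is chr4:4859415-4859664 and for WNT1 it is chr12:48978072-48978321, both on the plus strand. The PAX3 window lies inside CCDC140, a gene annotated on the opposite strand.

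Of the 10 genes, 9 had a promoter entry in the RefSeq table, and EN1 had none. Either CCAAT or its reverse complement ATTGG was present in 5 of these 9 (PAX3, PAX7, MSX1, ZIC1 and PAX8), against 32.0% of all 35116 windows of the same length. LMX1A and WNT1 held neither form, so the motif was not shared by all the genes shown above. Searched on both strands, TTCAAAG and ATCAAAG, letters bound by the TCF factors of the WNT pathway, and TAATTA, letters bound by many homeodomain proteins, were present in none of the 9. These occurred in 3.80%, 2.26% and 4.35% of all windows. The windows of LMX1A, MSX1 and WNT1 were rich in G and C, with GC contents of 75.2%, 74.0% and 78.4% against a median of 58.0% over all windows.

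Gene coordinates follow GENCODE release 29 on GRCh38. PAX3 lies on chromosome 2 at 222199888 to 222298996, PAX7 on chromosome 1 at 18631006 to 18748866 and LMX1A on chromosome 1 at 165201867 to 165356715. MSX1 lies on chromosome 4 at 4859666 to 4863936, ZIC1 on chromosome 3 at 147393422 to 147510293 and WNT1 on chromosome 12 at 48978453 to 48981676. EN1 is on chromosome 2 at 118842171 to 118847678 and EN2 on chromosome 7 at 155458129 to 155464831. PAX2 is on chromosome 10 at 100735603 to 100829941 and PAX8 on chromosome 2 at 113215997 to 113278950. PAX8 overlaps PAX8-AS1, PAX3 overlaps CCDC140, ZIC1 overlaps ZIC4, and LMX1A overlaps a pair of antisense genes, all on the opposite strand. The library kit keeps strand, but the strand setting of the counting is not given in the sources used here, so reads of these pairs may be shared.

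Levels are given in CPM, counts brought to a common total per library and scaled for composition. The MEL1 SCR library was the shallowest, with 15963241 estimated counts in all, and the other 11 held 36609628 to 43508287. METTL14 itself was at 29.8 and 43.8 CPM with SCR in H1 and between 8.90 and 17.7 CPM in the 6 H1 knockdown libraries. In MEL1 it was at 49.9 CPM with SCR, 8.03 and 5.94 CPM with KD1 and 8.95 CPM with KD2. All 9 knockdown libraries were thus below all 3 SCR libraries. Between the MEL1 hairpins, METTL14 differed by a log2 of -0.36 (KD1 minus KD2, SE 0.30), which did not pass the edgeR quasi-likelihood test (adjusted p = 0.504).

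The lines differed in the markers they carried. The summed level of 5 pluripotent cell markers (POU5F1, NANOG, ZFP42, DPPA4 and TDGF1) was 231 to 361 CPM in the H1 libraries and 694 to 2023 CPM in MEL1. Forebrain genes showed the opposite, with a summed level of 388 to 728 CPM in H1 and 15.8 to 21.8 CPM in MEL1. Neural progenitor markers, among them SOX2, NES and PAX6, summed to 1529 to 2104 CPM in H1 and 753 to 1067 CPM in MEL1. Among markers of muscle precursors and kidney, MYF5 and MYOD1 were at or below 0.31 CPM and OSR1 and WT1 at or below 0.24 CPM in every library. The whole paraxial mesoderm and muscle list summed to 14.0 to 19.2 CPM in H1 and 8.20 to 22.3 CPM in MEL1. The kidney list summed to 0.924 to 2.64 CPM in H1 and 8.85 to 22.3 CPM in MEL1. In such bulk samples fewer cells of a type and less RNA per cell cannot be told apart.

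Per kilobase of transcript, PAX3 was the most abundant of the 10 in both lines. Its level was 20.96 ± 6.87 CPM per kb over the 8 H1 libraries and 19.1 ± 14.6 over the 4 MEL1 libraries (SD, all hairpins together). MSX1 came next in both, at 14.99 ± 6.26 and 8.45 ± 6.66 CPM per kb. In H1 the order went on with ZIC1 (6.30), PAX7 (2.67), PAX8 (1.85), LMX1A (1.11), WNT1 (0.605), PAX2 (0.386), EN1 (0.262) and EN2 (0.132), all in CPM per kb. In MEL1 it went on with WNT1 (5.19), PAX7 (2.599), LMX1A (1.03), PAX2 (0.474), PAX8 (0.352), ZIC1 (0.177), EN1 (0.05001) and EN2 (0.0249). These MEL1 means pool 1 SCR, 2 KD1 and 1 KD2 library, and several rest on the KD2 library: the 4 libraries ran from 0.696 to 16.1 CPM per kb for WNT1, 0.627 to 6.82 for PAX7 and 0.259 to 2.58 for LMX1A. The ranges of neighbouring genes in these orders overlapped within each line, and ZIC1 and WNT1 were the genes that changed place most between the lines.

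**Figure D1:**
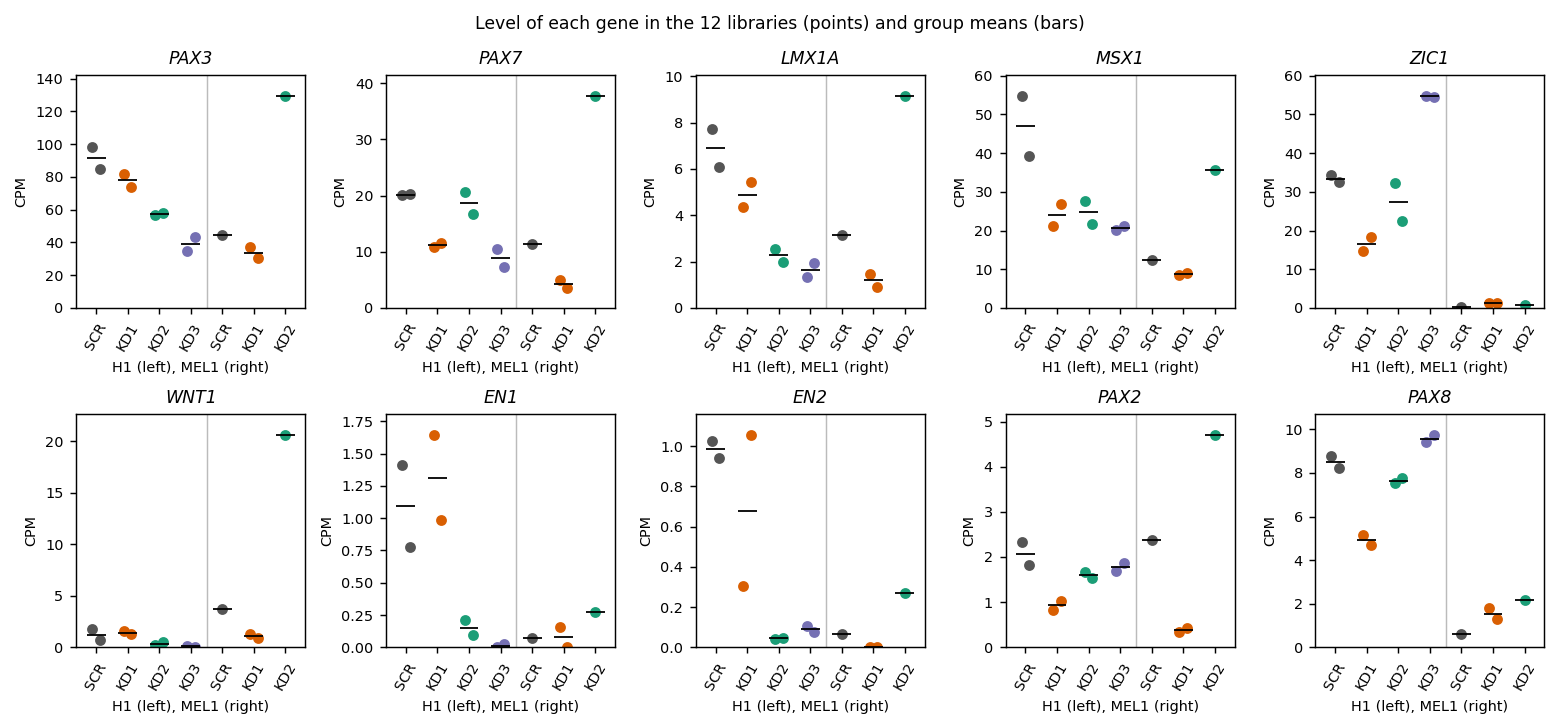
Level of each gene in CPM (vertical axis, linear, from 0, a scale of its own per panel) in the 12 libraries, grouped by hairpin, with H1 to the left and MEL1 to the right of the grey line; points are libraries and bars are group means. PAX3, PAX7, LMX1A, WNT1 and PAX2 were highest in the MEL1 KD2 library, whereas ZIC1 and PAX8 were low in all MEL1 libraries.

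In H1, the comparison that chose the list, PAX3, LMX1A and MSX1 were lower in all 6 knockdown libraries than in both SCR libraries. Such separation was found for these 3 of the 10 genes and for 11.7% of all genes tested, and nothing is read from it here, because the list was drawn up on this contrast. PAX3, a paired-box factor of the dorsal neural tube and neural crest, was at 98.0 and 84.9 CPM with SCR, 81.8 and 73.8 with KD1, 56.6 and 58.1 with KD2 and 34.9 and 43.5 with KD3. LMX1A, a LIM-homeodomain factor of the roof plate and of midbrain dopaminergic progenitors, was at 7.71 and 6.09 CPM with SCR, 4.35 and 5.41 with KD1, 2.55 and 1.98 with KD2 and 1.34 and 1.96 with KD3. MSX1, a homeobox factor downstream of BMP signals, was at 54.8 and 39.2 CPM with SCR and between 20.1 and 27.6 CPM in the 6 knockdown libraries. PAX3 and LMX1A thus fell in the order KD1, KD2 and KD3, while MSX1 was at a similar level with each. Neighbouring steps did not pass in edgeR, with adjusted p of 0.181 and 0.132 for PAX3 and 0.116 and 0.657 for LMX1A. DESeq2 called KD1 against KD2 for LMX1A and KD2 against KD3 for PAX3. METTL14 did not follow this order, and its KD2 libraries were the highest of the 6, at 17.7 and 14.8 CPM. KD1 and KD3 differed in METTL14 by a log2 of -0.02 (SE 0.24, edgeR adjusted p = 0.982). Whether the order depends on METTL14 was not tested.

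The fitted log2 fold changes over the 3 H1 hairpins were -0.71 for PAX3, -1.39 for LMX1A and -1.03 for MSX1. For the other members they ran from -0.19 for ZIC1 and -0.26 for PAX8 to -2.77 for EN2 and -2.87 for EN1, all below 0. Single hairpins did not all have that sign. WNT1 and EN1 had estimates above 0 with KD1 (0.18 and 0.27), and ZIC1 and PAX8 had estimates above 0 with KD3 (0.71 and 0.17).

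**Figure D2:**
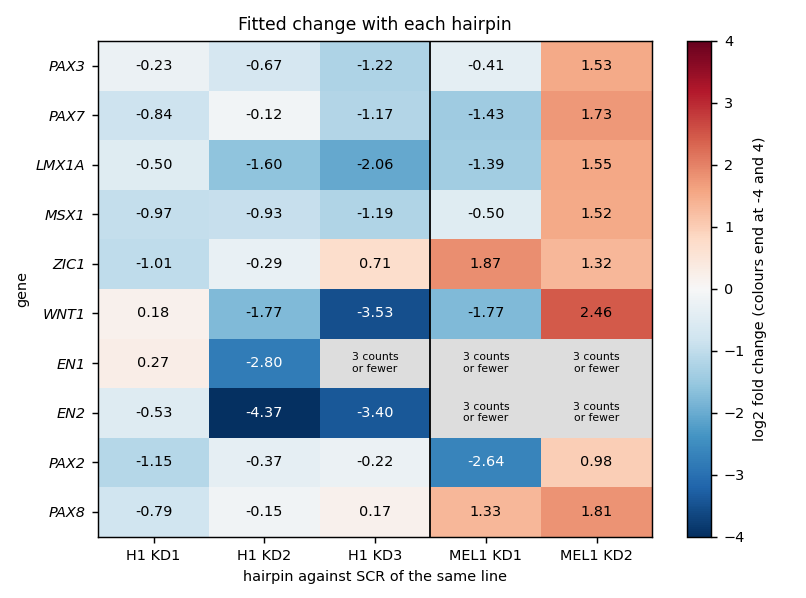
Fitted log2 fold change of each gene (rows) with each hairpin against SCR of the same line (columns); red is higher and blue lower than SCR, and grey cells are left out because a group held 3 counts or fewer. PAX3, PAX7, LMX1A, MSX1 and WNT1 have a negative value with MEL1 KD1 and a positive one with MEL1 KD2, and the columns of a line share its SCR libraries.

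The H1 hairpins were then compared with each other, which leaves the SCR libraries out of the contrast. Of the 10 genes, 7 differed between KD1, KD2 and KD3 (edgeR quasi-likelihood F-test over the 3 groups), against 3.54% of all genes tested: PAX3, PAX7, LMX1A, ZIC1, WNT1, EN1 and EN2. The count rests on few libraries. It was 1 without the first or the second KD1 library, where the share of all genes called fell too, to 0.622% and 0.645%. It was 3 without the first KD3 library and 2 without the second, against 2.2% and 1.02% of all genes. Because members were partly chosen for low values in these same knockdown libraries, the count is not free of the choice.

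Between KD1 and KD3, 6 of 10 were called, against 4.63% of all genes, with PAX3, LMX1A, WNT1 and EN1 higher with KD1 and ZIC1 and PAX8 lower. PAX3 was 0.99 higher on the log2 scale with KD1 than with KD3 (SE 0.14, edgeR adjusted p = 0.00594). LMX1A was 1.56 higher (SE 0.30, edgeR adjusted p = 0.0192). PAX3 and LMX1A led to the list through low values in the H1 knockdown libraries, so these tests and the count are not free of the choice. The same limit holds for every other test that uses H1 knockdown libraries. Without the first or the second KD1 library, or without the second KD3 library, at most 2 of the 6 were called, ZIC1 in each case, and the share of all genes called fell to 0.376%, 0.485% and 0.63%.

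ZIC1, a zinc finger factor of the dorsal neural tube, went the other way from PAX3 and LMX1A. It was at 14.8 and 18.4 CPM with KD1, 32.3 and 22.4 with KD2 and 54.8 and 54.6 with KD3, and the SCR libraries, at 34.4 and 32.4 CPM, lay between. KD1 was lower than KD3 by a log2 of -1.72 (SE 0.18, edgeR adjusted p = 0.00162), and KD2 by -0.999 (SE 0.18, edgeR adjusted p = 0.0296). ZIC4, which overlaps ZIC1 on the opposite strand and is another member of its family, was also lower with KD1 than with KD3 (log2 -1.17, SE 0.25, edgeR adjusted p = 0.0282). PAX8, a paired-box factor of the hindbrain, ear, kidney and thyroid, was at 5.13 and 4.71 CPM with KD1, 7.55 and 7.75 with KD2 and 9.40 and 9.74 with KD3. Its KD1 libraries were below the other 6 H1 libraries, and KD1 was lower than KD3 by a log2 of -0.96 (SE 0.20, edgeR adjusted p = 0.0260).

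The boundary genes WNT1, EN1 and EN2 were low in H1. WNT1, a secreted ligand of the roof plate and of the boundary, was at 1.77 and 0.701 CPM with SCR, 1.54 and 1.24 with KD1, 0.235 and 0.484 with KD2 and 0.161 and 0.0496 with KD3. EN1, a homeobox factor of the midbrain and anterior hindbrain, had 55 and 32 counts with SCR, 65 and 42 with KD1, 10 and 4 with KD2 and 0 and 1 with KD3. Its KD3 level is set by 1 count, so no fold is given. EN2, its paralog with a like domain of use, had 40 and 39 counts with SCR, 12 and 45 with KD1, 2 in each KD2 library and 4 and 3 with KD3. All KD1 libraries were thus above all KD2 and KD3 libraries for these 3 genes, as they were for PAX3 and LMX1A. The share of all genes with this separation was not computed, so nothing is read from it.

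The ordering with both KD1 above both KD2 above both KD3 libraries held for PAX3, LMX1A, WNT1 and EN1, that is 4 of 10 members and 3.75% of all genes tested. PAX7, a close relative of PAX3, did not follow it. PAX7 was at 20.0 and 20.3 CPM with SCR, 10.9 and 11.6 with KD1, 20.6 and 16.7 with KD2 and 10.6 and 7.31 with KD3. KD2 was near SCR and higher than KD3 by a log2 of 1.06 (SE 0.21, edgeR adjusted p = 0.0458), a call that was lost, among other settings, without any 1 of the 4 KD2 and KD3 libraries. PAX7 and ZIC1 were the 2 of 10 members called between KD2 and KD3, against 1.01% of all genes; the ZIC1 call was lost without the second KD2 library or either KD3 library, fits that called 0.148% to 0.34% of all genes.

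PAX2, a paired-box factor of the boundary, ear and kidney, was at 2.33 and 1.81 CPM with SCR, 0.834 and 1.03 with KD1, 1.67 and 1.55 with KD2 and 1.69 and 1.86 with KD3. The KD1 libraries were the lowest, but PAX2 was not called between H1 hairpins. With the GC and length trend removed it was called lower with KD1 than with KD3 (-1.24, edgeR adjusted p = 0.0298). MSX1 was not called between H1 hairpins either. Its KD1 minus KD2 difference was -0.04 on the log2 scale (95% interval -0.40 to 0.33). Between KD1 and KD2 in H1 no member was called by edgeR, against 0.851% of all genes; 9 of 10 had an unadjusted p under 0.05. DESeq2 called 3, LMX1A, WNT1 and ZIC1, against 3.63% of all genes. Without the filter on low counts edgeR called 6, these 3 with PAX7, EN1 and EN2, against 4.2%. EN2 was called with the GC and length trend removed, and ZIC1 without the second KD2 library.

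In MEL1 the same 2 hairpins gave large differences. Of the 10 genes, 7 were lower with KD1 than with KD2, against 4.82% of all genes called lower and 8.43% called in either direction, and none was higher. PAX3 was at 37.0 and 30.7 CPM with KD1 and 129.6 with KD2, while the SCR library was at 44.8. PAX7 was at 4.94 and 3.47 CPM with KD1 and 37.8 with KD2, with SCR at 11.4. In both, KD1 lay below SCR and KD2 above it, and the KD2 library was the highest of all 12.

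KD1 was lower than KD2 by a log2 of -1.94 for PAX3 (SE 0.17, edgeR adjusted p = 0.000183) and -3.16 for PAX7 (SE 0.25, edgeR adjusted p = 0.000120). LMX1A was at 1.46 and 0.918 CPM with KD1, 3.13 with SCR and 9.15 with KD2, a difference of -2.94 (SE 0.35, edgeR adjusted p = 0.00102). MSX1 was at 8.48 and 9.07 CPM with KD1, 12.4 with SCR and 35.6 with KD2, a difference of -2.02 (SE 0.22, edgeR adjusted p = 0.000728). These 4 dorsal genes had the same order over the 3 MEL1 groups.

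WNT1 was at 1.30 and 0.889 CPM with KD1, 3.75 with SCR and 20.6 with KD2, so the KD2 library held more WNT1 than any of the other 11. The difference was a log2 of -4.22 (SE 0.53, edgeR adjusted p = 0.00151). PAX2 was at 0.332 and 0.430 CPM with KD1, 2.39 with SCR and 4.70 with KD2, a difference of -3.62 (SE 0.37, edgeR adjusted p = 0.000438). EN2 had 0 counts in both KD1 libraries, 1 with SCR and 12 with KD2. Against the level that 3 counts over both KD1 libraries would give, 0.0406 CPM, the KD2 library was at least 6.65-fold higher, and its call (edgeR adjusted p = 0.0318) was lost without either KD1 library (adjusted p 0.0729 and 0.125).

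ZIC1, EN1 and PAX8 did not pass between the MEL1 hairpins. ZIC1 was at 1.28 and 1.23 CPM with KD1 and 0.855 with KD2, with a difference of 0.55 (95% interval -0.06 to 1.17). PAX8 was at 1.79 and 1.29 CPM with KD1 and 2.16 with KD2, with a difference of -0.48 (95% interval -1.002 to 0.04). EN1 had 6 and 0 counts with KD1 and 12 with KD2, too few to place it. The order KD1 below SCR below KD2 held for 7 of 10 members and for 11.7% of all genes tested.

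The KD2 group of MEL1 is 1 library, assumed in the fit to vary like the other groups, so the hairpin and that library cannot be told apart. Without that library the comparison has no value.

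**Figure D3:**
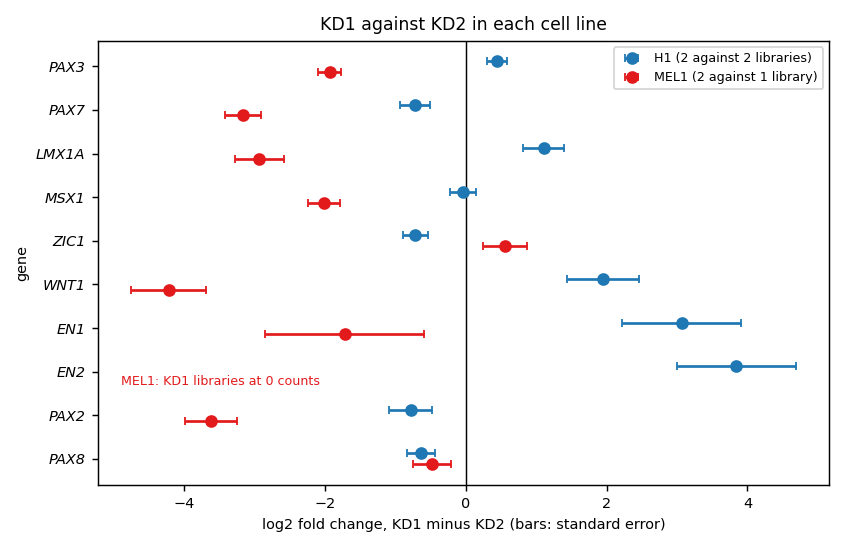
Log2 fold change between KD1 and KD2 (horizontal axis, KD1 minus KD2) for each gene (vertical axis) in H1 and MEL1; points are fitted values and bars standard errors, and EN2 has no MEL1 point because both KD1 libraries were at 0 counts. PAX3, LMX1A and WNT1 lie right of 0 in H1 and left of 0 in MEL1. The EN1 points do so too, but in MEL1 EN1 had 6 and 0 counts with KD1 and 12 with KD2, too few to place it.

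Whether the difference between KD1 and KD2 itself differed between the lines was tested in the same fit, a comparison added after the values were seen. It differed for 7 of 10 members, against 1.45% of all genes: PAX3, PAX7, LMX1A, MSX1, WNT1, EN2 and PAX2. In MEL1 the log2 difference was more negative than in H1 by -2.38 for PAX3 (SE 0.22, edgeR adjusted p = 0.00124), -4.04 for LMX1A (SE 0.46, edgeR adjusted p = 0.00355) and -6.17 for WNT1 (SE 0.74, edgeR adjusted p = 0.00445). For these 3 the H1 estimates were on the other side of 0, at 0.44, 1.11 and 1.95, and those of LMX1A and WNT1 were called in H1 by DESeq2 and without the filter on low counts. For PAX7 and PAX2 the H1 estimates, -0.72 and -0.78, had the sign of MEL1, and the lines differed in size, by -2.44 (SE 0.33, edgeR adjusted p = 0.00714) and -2.84 (SE 0.48, edgeR adjusted p = 0.0198).

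MSX1 differed between the lines by -1.98 (SE 0.29, edgeR adjusted p = 0.0101), with an H1 estimate near 0. The fits that left out 1 library each called 4 to 8 of the 10 members. The 4 left without the second H1 KD1 library, where 0.352% of all genes were called, were PAX3, PAX7, LMX1A and WNT1; MSX1 then had an adjusted p of 0.0530. METTL14 showed no such difference that passed (log2 0.20, SE 0.39, edgeR adjusted p = 0.872).

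Against the SCR library, PAX3, PAX7, LMX1A, MSX1 and WNT1 had estimates below 0 with KD1 and above 0 with KD2 in MEL1, and of these PAX7 passed the test with both hairpins. ZIC1 had estimates above 0 with both. The tests of each MEL1 hairpin against SCR, with KD1 and with KD2, were not among the planned comparisons. With KD2, 4 of 10 members were higher and none lower, against 2.57% of all genes called higher and 3.88% called in either direction. PAX3 rose by a log2 of 1.53 (SE 0.21, edgeR adjusted p = 0.00695), PAX7 by 1.73 (SE 0.31, edgeR adjusted p = 0.0191) and MSX1 by 1.52 (SE 0.28, edgeR adjusted p = 0.0208). PAX8 was 1.81 higher (SE 0.40, edgeR adjusted p = 0.0354), from 9 counts in the SCR library and 96 with KD2. The PAX8 call was lost in 6 of 17 other settings. WNT1 was at 2.46 (SE 0.65, edgeR adjusted p = 0.0616) and LMX1A at 1.55 (SE 0.43, edgeR adjusted p = 0.0717). This comparison sets 1 library against 1, its error comes from the spread within the other groups, and both hairpins are set against the same SCR library, the shallowest of the 12.

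With KD1, 3 of 10 members were called against SCR, beside 8.39% of all genes. PAX7 fell by 1.43 on the log2 scale (SE 0.27, edgeR adjusted p = 0.0150) and PAX2 fell by 2.64 (SE 0.40, edgeR adjusted p = 0.00780). ZIC1 was 1.87 higher (SE 0.52, edgeR adjusted p = 0.0495), from 5 counts with SCR to 50 and 43 with KD1, and 13 of 18 other settings lost this call. Without the second KD1 library 1 of the 10 was called, against 1.71% of all genes. PAX3 and LMX1A, at -0.41 and -1.39, did not pass (edgeR adjusted p = 0.177 and 0.0509).

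Averaged over KD1 and KD2, the MEL1 knockdown left 1 of 10 members called, PAX8, against 4.45% of all genes. PAX8 was higher by a log2 of 1.57 (SE 0.37, edgeR adjusted p = 0.0386), a call that 11 of 19 other settings lost. PAX3 was at 0.56 (95% interval 0.22 to 0.91, edgeR adjusted p = 0.0916) and LMX1A at 0.08 (95% interval -0.66 to 0.81, edgeR adjusted p = 0.960). These averages join 2 opposite values: without the KD2 library they were -0.41 and -1.39.

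At matched hairpins (SCR, KD1 and KD2), the level itself differed between the lines for 8 of 10 members, but 49.1% of all genes were called in this comparison. ZIC1 was the furthest apart. It was at 14.8 to 54.8 CPM in the 8 H1 libraries (median 32.4) and at 0.341 to 1.28 CPM in MEL1, lower by a log2 of -5.11 (SE 0.19, edgeR adjusted p = 4.56e-09). PAX8, EN1, EN2 and MSX1 were lower in MEL1 too, by -2.43, -2.38, -3.00 and -0.95, as were PAX3 and PAX7, by -0.35 and -0.41. Those of PAX3 and PAX7 depend on the setting: without the MEL1 SCR library they were -0.018 and -0.21. The PAX7 call was also lost with median-of-ratios scaling (-0.38). WNT1 was the member called higher in MEL1, by 2.37 (SE 0.31, edgeR adjusted p = 8.47e-05), and this rests on the MEL1 KD2 library: without it the difference was 0.63 (adjusted p = 0.244).

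LMX1A (-0.39, 95% interval -0.78 to 0.01) and PAX2 (0.15, 95% interval -0.25 to 0.56) did not pass between the lines. Without the MEL1 KD2 library LMX1A was called lower in MEL1 (-1.58, edgeR adjusted p = 0.000455), and the differences of PAX3, PAX7 and MSX1 were -1.11, -1.12 and -1.69. An additive model of line and hairpin, which counts differences between the lines in the hairpin effect as spread, called 2 of the 10, against 43.7% of all genes. Without the MEL1 SCR library 5 were called, against 44.4%.

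Genes of the same territories were read from lists chosen by textbook role. Over all genes tested, 4.82% were called lower and 3.61% higher with KD1 than with KD2 in MEL1, where KD2 is 1 library. Of 14 other dorsal and roof plate genes, 4 were lower and none higher with KD1 than with KD2 in MEL1: LMX1B (log2 -2.32), MSX2 (-1.78), RSPO3 (-1.65) and RSPO1 (-1.08). LMX1B is the paralog of LMX1A and MSX2 that of MSX1, while RSPO1 and RSPO3 are secreted enhancers of WNT signalling. The median over the 14 was -0.46, against -0.0029 over all genes tested. ZIC2, ZIC4 and ZIC5, like ZIC1, were not among those called.

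Neural crest and border genes moved with the dorsal genes in MEL1. Of 12, 9 were lower and none higher with KD1 than with KD2, against 4.82% of all genes called lower, with a median of -1.66. The 5 with the largest difference were DLX3 (-3.01), DLX5 (-2.07), FOXD3 (-1.99), ETS1 (-1.97) and SOX9 (-1.85); FOXD3 and SOX9 are transcription factors of early crest cells, and DLX3 and DLX5 are homeobox factors of the border and placodes. FOXD3 was at 11.7 and 12.3 CPM with KD1, 17.1 with SCR and 47.8 with KD2. The summed level of the 12 genes was 365 and 315 CPM with KD1, 439 with SCR and 838 with KD2, against 202 to 267 CPM in H1.

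The difference between the lines in KD1 against KD2 was called for 5 of the 12 crest genes, all more negative in MEL1: SOX9, FOXD3, SNAI2, TFAP2A and ETS1. Over all genes the share called was 1.45%. Of the dorsal list it was called for MSX2 (-1.75) and GDF7 (-4.20), a BMP-family ligand of the roof plate, in that direction, and for BMP7 (1.07) in the other. GDF7 was at 8.24 and 7.52 CPM with KD1 in H1 and 0.834 and 0.577 with KD2.

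**Figure D4:**
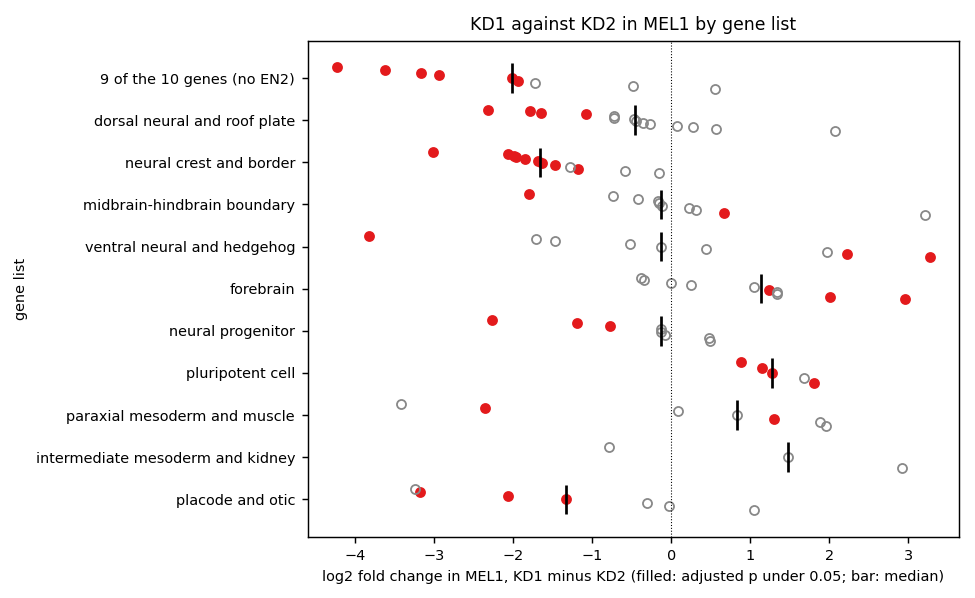
Log2 fold change between KD1 and KD2 in MEL1 (horizontal axis, KD1 minus KD2) for 9 of the 10 genes and for each gene list with at least 3 genes tested (vertical axis); filled points passed the edgeR test at an adjusted p under 0.05, open points did not, and black bars are medians. Points of the neural crest and border list all lie left of 0, and those of the pluripotent cell list all lie right of 0.

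The other midbrain-hindbrain boundary genes did not move with WNT1 and PAX2. Of 10 in that list, 1 was lower with KD1 than with KD2 in MEL1 (FGF17, -1.79) and 1 higher (SPRY1, 0.67), with a median of -0.13. FGF8, the organising ligand of that boundary, was at or below 1.09 CPM in every MEL1 library. In H1, the 3 hairpins differed for 6 of these 10 genes, against 3.54% of all genes: FGF8, FGF17, SPRY2, DUSP6, GBX2 and PAX5. FGF8 was lower with KD1 than with KD3 by a log2 of -1.40 (SE 0.17, edgeR adjusted p = 0.00220), while PAX5, the third gene of the PAX2 and PAX8 family, was higher by 2.09 (SE 0.39, edgeR adjusted p = 0.0170). WNT1 and EN1 therefore went with PAX5 and against FGF8 over the H1 hairpins.

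Of the ventral list, SHH stayed at or below 0.37 CPM in all 12 libraries, and FOXA2, a floor plate factor, at or below 0.43. Between the MEL1 hairpins 2 of 9 tested ventral genes were higher with KD1 (NKX2-1 and OLIG2) and 1 lower (FOXA1), all at or below 0.87 CPM in the 4 libraries. Of 10 forebrain genes, 3 were higher with KD1 and none lower: RAX (2.96), FEZF2 (2.01) and SIX3 (1.23), each at or below 1.87 CPM in MEL1.

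Some markers of other cells also differed between the MEL1 hairpins, in both directions. In MEL1, 4 of 5 pluripotent cell markers were higher with KD1 than with KD2 and none lower: POU5F1 (1.80), NANOG (1.28), DPPA4 (1.15) and ZFP42 (0.88). Their summed level was 1838 and 2023 CPM with KD1, 1538 with SCR and 694 with KD2, the reverse of the order of PAX3. Of 8 neural progenitor markers 3 were lower with KD1 and none higher, PAX6, CDH2 and NCAM1. Summed, the 8 were at 818 and 753 CPM with KD1, 1067 with SCR and 789 with KD2. The KD2 sum thus lay between those of the KD1 libraries and below SCR. Of 7 placode and otic markers 3 were lower and none higher, EYA4, EYA1 and DLX5, the last of them also in the crest list. Of 7 tested paraxial mesoderm and muscle markers MEOX1 was lower and TCF15 higher. Kidney markers summed to 8.85 to 22.3 CPM in MEL1 and to 0.924 to 2.64 CPM in H1. Most of the MEL1 sum was GATA3, which trophoblast and ectoderm also use. The part of these cells in the differences of the dorsal genes was not tested.

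**Figure D5:**
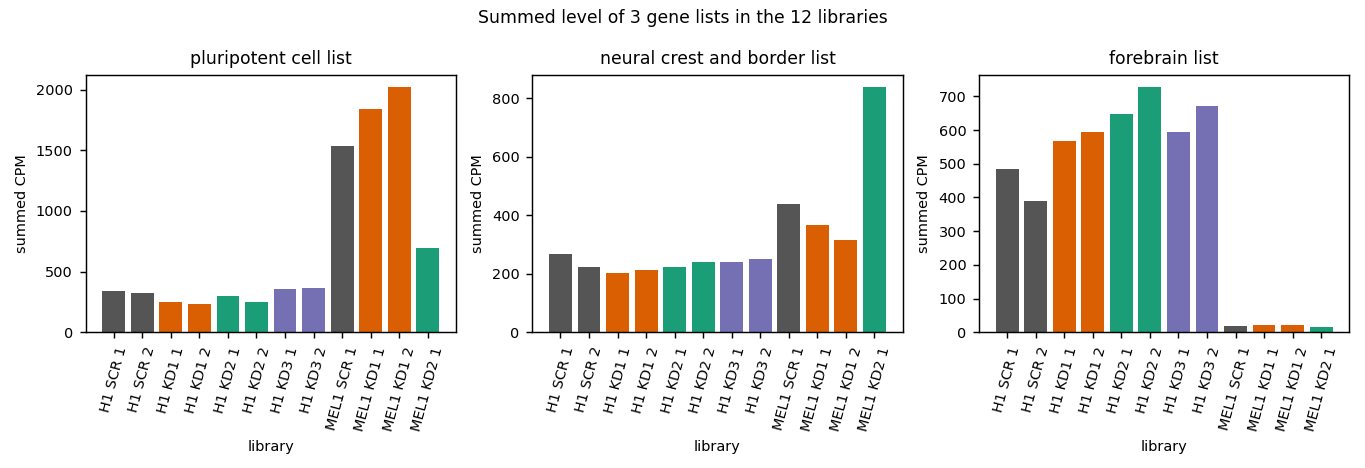
Summed CPM (vertical axis, linear, from 0) of the pluripotent cell, neural crest and border, and forebrain lists in each of the 12 libraries (horizontal axis), coloured by hairpin. Among the MEL1 libraries, KD2 is the lowest of the pluripotent cell list, at 694 CPM, and the highest of the crest and border list, at 838 CPM.

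Transcript GC content moved with libraries, in part within a hairpin. Across the 10407 genes whose mean reached 10 CPM, the rank correlation of a library's deviation from its line with GC content is given as a description. In H1 it was 0.26 and -0.49 with SCR, 0.32 and 0.62 with KD1, -0.24 and 0.15 with KD2 and 0.041 and -0.58 with KD3. In MEL1 it was -0.64 with SCR, 0.41 and 0.46 with KD1 and -0.026 with KD2. Both KD1 pairs were thus above 0, whereas the H1 SCR and KD2 pairs fell on both sides of it. WNT1 and PAX2, with transcript GC contents of 67.4% and 63.3%, lie at percentiles 98.3 and 92.1 of 16333 tested coding genes, and PAX3, at 50.2%, lies at percentile 51.7. With a smooth trend on GC content and length removed from each library, PAX3 differed between the MEL1 hairpins by -1.91 and WNT1 by -4.61, and the same 7 members were called.

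Across the 12 libraries, each centred on the mean of its line, 5 of the dorsal genes varied together. Pearson's r of log2 CPM was 0.95 between PAX3 and LMX1A, 0.92 between PAX3 and WNT1, 0.88 between PAX3 and MSX1 and 0.82 between PAX3 and PAX7. The boundary genes EN1, EN2 and PAX2 had r of 0.78, 0.77 and 0.57 with PAX3. LMX1A with EN2 was at 0.88 and PAX7 with PAX2 at 0.83, above some pairs of the 5, such as PAX7 with WNT1 (0.73). The variation was thus not particular to the 5 dorsal genes. ZIC1 (-0.40) and PAX8 (0.09) did not go with PAX3. The genes most like PAX3, of 14944 ranked, were GALNT10 (0.98), LAMA4 (0.97), WNT8A (0.97), JAM3 (0.95) and ITGA5 (0.95). Those most like LMX1A were COLEC12 (0.97), LAMA4 (0.96), EPHB1 (0.94), ITGA5 (0.94) and DGKG (0.94). Over the 8 H1 libraries by themselves, r was 0.97 for PAX3 with GALNT10 and 0.99 for LMX1A with COLEC12. These values describe libraries that share hairpin groups, depth and GC trends, and the 12 points include the single MEL1 KD2 library, which stands far above the rest.

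The letters GGACT, the core of the commonest sequence context of N6-methyladenosine, were counted in 1 GENCODE transcript of each gene. They occurred 4 times in PAX3, 6 in PAX7, 2 in LMX1A, 3 in MSX1 and 1 time in WNT1. ZIC1, EN1, EN2 and PAX8 held 3 each and PAX2 held 6. The median over tested coding genes was also 3, and the members lay between percentiles 22.9 (WNT1) and 82.9 (PAX7 and PAX2). No methylation was measured in these libraries, and the count describes the sequence alone.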

How the data were processed

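The authors deposited 1 table of estimated counts (expected counts, 65969 Ensembl identifiers, 41981 with a symbol), not scaled between libraries. The submitters' processing notes name fastp and kallisto; versions, build, annotation and strand setting are not given in the sources used here. Counts were rounded, filtered with filterByExpr over 7 groups (24898 genes left) and scaled by TMM. Robust quasi-likelihood F-tests of edgeR 4.0.16 (R 4.3.3) were fitted to the group means of all 12 libraries. Benjamini-Hochberg adjustment was over all genes, with a threshold of 0.05. The tests were also run on simulated counts that gave all groups the same spread by design. That run could not check whether the MEL1 groups of 1 library vary like the others, and nothing is concluded from it. Standard errors are the log2 fold change over the square root of F. The 95% intervals follow from them with the normal distribution. They are therefore narrower than the F-tests imply, and an interval that leaves out 0 need not match a p-value under 0.05. The named genes are all 10 members, METTL14, up to 5 called genes per list with the largest change, and the 5 genes most like PAX3 and LMX1A (log2 CPM, prior count 2, mean of at least 1 CPM). Other list genes named were chosen after their values were seen, and the hindbrain list is not reported here. The members and lists were chosen with earlier results of these data known. Alternatives were other scalings, filters and fits, DESeq2 1.42.0, removal of a GC and length trend (splines with 5 and 4 degrees of freedom, 90.6% of tested genes with values), other sets of libraries and leaving out each library. Coordinates and transcript sequences are those of GENCODE release 29. Replicates of a group differed by more than sampling noise (chi-square per degree of freedom 21.2 to 31.6), so each was counted.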

Additional observations from a re-analysis of the deposited data

Results flagged for a closer look

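The difference between KD1 and KD2 was not the same in the 2 lines for 7 members by the test of the difference itself (edgeR). On the log2 scale, MEL1 minus H1, it was -2.38 for PAX3, -2.44 for PAX7, -4.04 for LMX1A, -1.98 for MSX1, -6.17 for WNT1 and -2.84 for PAX2. For EN2 the fitted value was -10.24, which depends on the prior count because both MEL1 KD1 libraries were at 0, and is no measure of size.

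EN2 had 1 library far from the rest among the 6 H1 knockdown libraries. The second KD1 library was at 1.05 CPM and the next at 0.303, a gap of 0.742 of the whole range, above the limit of 0.625 for 6 values. The 6 values come from 3 hairpins. Of 11 genes examined this way, EN2 was the one beyond the limit, and chance flags about 1 group in 20.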

How the results depend on the processing

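No paired analysis was possible because the labels carry no replicate numbers. Of the settings run, those that could give a value called 6 or 7 members between the MEL1 hairpins. Leaving out 1 library at a time, the count was 0 to 2 for the MEL1 knockdown average, 1 to 7 for the H1 hairpins, 5 to 8 between the lines, 4 to 8 for the difference between lines in KD1 against KD2, 1 to 4 for MEL1 KD1 against SCR and 3 to 5 for MEL1 KD2 against SCR, and 3 to 5 members separated in H1. The MEL1 average count was 2 with no filter (6.73% of all genes called) and 0 with the GC trend removed (3.24%) and with DESeq2 (8.61%); at an unadjusted p under 0.05 these gave 4 and 3. It was also 0 with MEL1 by itself, an edgeR fit that called 0 of 22233 genes (2000 of all genes and 0 members at an unadjusted p under 0.05). That fit pooled KD1 and KD2 into 1 group, so differences between these hairpins counted as spread. For MEL1 KD1 against SCR the count was 5 with no filter (9.46%), with a mean of at least 1 CPM (14.7%) and with the GC trend removed (5.68%). Between KD1 and KD2 in H1 it rose from 0 to 6 with no filter. The additive model gave 2 between the lines. These counts moved by more than 1.5 times, and the cause was not tested.

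Some values changed sign. In the MEL1 average, leaving out 1 library at a time gave log2 ranges of -0.41 to 0.62 (PAX3), -1.43 to 0.26 (PAX7), -1.39 to 0.22 (LMX1A), -0.50 to 0.53 (MSX1), -1.77 to 0.46 (WNT1), -1.27 to 1.53 (EN1) and -0.60 to 0.000177 (DPPA4). The negative values of the 5 dorsal genes, and the DPPA4 value near 0, came without the KD2 library; LMX1A was also at -0.12 without the first KD1 library, and WNT1 at -0.24 with the GC correction. MEL1 KD1 against SCR gave EN1 at -0.25 with the GC correction and -4.47 to 1.13 with 1 library left out. Between the lines, WNT3A ranged from -1.78 to 0.26, positive without the MEL1 SCR library, and PAX2 from -0.54, without MEL1 KD2, to 0.22. The difference between lines for PAX8 ranged from -0.12 to 0.34. MSX1 in H1, for KD1 against KD2, was at 0.036 with upper-quartile scaling and from -0.22 to 0.16 with 1 library left out, and for KD1 against KD3 at -0.083 with the GC correction. Depth limits EN1 and EN2, which held 0 to 12 counts in MEL1.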
